A study of Mus musculus with 24 samples.

Results

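The main effect of maternal separation on gene expression was measured by RNA-seq across mice with and without a bacterial supplement, all of them wild-type adult males, from whose brains the prefrontal cortex was taken. All 24 libraries of the series entered the comparison: the 12 from separated mice (groups MS and MS_EC12) were set against the 12 from mice reared normally (groups Control_EC12 and Control), with the supplement as a second term of the model. Each of the 4 groups held 6 libraries. MS mice were separated and had no supplement, MS_EC12 mice were separated and received EC-12, Control_EC12 mice were reared normally and received EC-12, and Control mice had no treatment. EC-12 is a preparation of heat-killed Enterococcus faecalis, a gut bacterium, given for 5 weeks. The labels give neither the age of the mice, nor their litters, nor the hours of separation, and whether 1 animal gave 1 library is not stated. The p-values therefore cover the spread among libraries, some of it possibly technical.

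Maternal separation removes pups from the dam for a time, and it is used in rodents as a model of early adversity with lasting effects on stress hormones and social behaviour. The prefrontal cortex is one of the regions that regulates both. Neurons that fire switch on immediate early genes within minutes, through calcium and the factors CREB and SRF. The products of these genes, among them the transcription factors Fos, Egr2 and Nr4a3, then drive slower programmes of plasticity. Glucocorticoids, the hormones of the stress axis, induce another set of genes, of which Fkbp5 and Plin4 are members.

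The libraries held 26250197 to 39252382 counts. Slc17a7, the vesicular glutamate transporter that marks cortical excitatory neurons, ran from 948 to 1590 CPM (counts scaled to library size) and Tbr1, a factor of deep cortical layers, from 87.6 to 146 CPM, so each library carried the markers of cortex. The libraries differed in how expression depended on the GC content of genes. This slope (log2 units per 10 percentage points of GC, relative to the mean of all libraries) was above 0 in 4 of 6 MS_EC12 and 1 of 6 MS libraries, against 2 of 6 Control_EC12 and 0 of 6 Control libraries. Between separated and normally reared mice it differed by 0.137 (exact 2-sided permutation within supplement states, p = 0.179, adjusted p = 0.269 over 3 measures). Total counts (adjusted p = 0.269) and the mitochondrial share of counts (adjusted p = 0.708) likewise did not pass in exact permutation. Values from the 17 libraries of slope below 0 are also given below.

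Separation went with lower levels of 4 immediate early genes, Nr4a3, Fos, Egr2 and Klf10, of Ppp1r3c, a glycogen-targeting protein, and of the lactate transporter Slc16a1, and with higher levels of Ppp1r10, Plin4, Pglyrp1 and Trpv4. In all, 30 of 18380 genes tested passed (0.163%), 15 higher (0.0816%) and 15 lower (0.0816%) in separated mice. The test was edgeR's quasi-likelihood F test with Benjamini-Hochberg adjustment over all genes and a threshold of 0.05, and 2153 genes had an unadjusted p under 0.05. Log2 fold changes of the 30 ran from -1.03 to 1.26, with a median size of 0.486. The median over all genes tested was -0.0155, with 46.5% positive. Predicted gene models made up 3 of the 30, and the other 27 are named below. The balance of directions moved with the scaling: with DESeq2's size factors in place of TMM, 16 genes were higher and 9 lower.

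Because the 4 immediate early genes were the only list with more than 1 member passing, the 250 bases before their start sites are shown first for those in the RefSeq promoter table (GRCm38.p6, all on the plus strand). Capitals mark TGACG, the core of the site bound by CREB, on either strand, and the CArG box bound by SRF, which appears once, in the Egr2 window. For Egr2 the start site furthest downstream of the 5 listed was taken. Its window lies inside the annotated gene, which spans 67534469 to 67542188. The 1 start site listed for Nr4a3 lies inside the annotated gene, whose span begins at 48045078. The windows are chr4:48045055-48045304 for Nr4a3, chr12:85473640-85473889 for Fos and chr10:67537680-67537929 for Egr2.
Nr4a3: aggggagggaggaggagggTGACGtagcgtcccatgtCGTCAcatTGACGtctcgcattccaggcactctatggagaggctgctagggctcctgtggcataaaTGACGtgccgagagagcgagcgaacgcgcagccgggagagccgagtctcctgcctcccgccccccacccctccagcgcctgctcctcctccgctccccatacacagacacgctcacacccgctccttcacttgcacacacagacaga
Fos: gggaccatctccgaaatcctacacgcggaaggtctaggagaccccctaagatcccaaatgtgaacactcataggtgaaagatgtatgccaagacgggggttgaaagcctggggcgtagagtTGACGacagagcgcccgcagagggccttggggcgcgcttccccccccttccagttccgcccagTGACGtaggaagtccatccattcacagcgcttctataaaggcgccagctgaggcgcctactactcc
Egr2: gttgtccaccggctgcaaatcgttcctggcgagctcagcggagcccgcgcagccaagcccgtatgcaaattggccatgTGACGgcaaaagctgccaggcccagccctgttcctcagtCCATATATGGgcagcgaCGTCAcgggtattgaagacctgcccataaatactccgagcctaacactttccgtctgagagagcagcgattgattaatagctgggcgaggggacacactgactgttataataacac
The core TGACG or its complement occurred 4 times in the Nr4a3 window and 2 times each in those of Fos and Egr2. It occurred in 25 of the 36 immediate early genes with a promoter in the table (69.4%, counting any listed start site), against 27.7% of all 13687 tested genes with a promoter, and in 17.8% of all 32851 windows. The full palindrome TGACGTCA was found for 5 of the 36 (13.9%), against 2.7% of tested genes, and the CArG box for 3 (8.33%), against 1.44%. These are matches of letters and show no binding, and sites beyond the 250 bases were not searched.

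Nr4a3, an orphan nuclear receptor induced by neuronal activity, had the smallest p of all genes. It ran from 24.6 to 39.1 CPM (median 33.5) in MS, against 39.7 to 61.2 CPM (median 53.8) in Control. With the supplement it ran from 21.4 to 34.9 CPM (median 26.3) in MS_EC12, against 42.7 to 65.1 CPM (median 52.1) in Control_EC12. No separated library reached the lowest normally reared library of the same supplement state. The log2 fold change of the additive fit was -0.80 ± 0.101 (SE, 12 against 12 libraries, edgeR adjusted p = 0.000452).

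Klf10 is a Krüppel-like repressor induced early by growth factors. It was the other named gene without overlap in either state, which choice by smallest p favours (share of all genes not counted). It spanned 17.5 to 32.0 CPM (median 25.7) in MS, against 34.9 to 43.0 CPM (median 37.0) in Control, and 20.7 to 30.1 CPM (median 24.7) in MS_EC12, against 30.1 to 33.6 CPM (median 30.9) in Control_EC12. In supplemented mice the highest MS_EC12 library lay just under the lowest Control_EC12 library. Its log2 fold change was -0.45 ± 0.0854 (edgeR adjusted p = 0.02).

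Fos, a subunit of the AP-1 factor, ran from 21.8 to 44.4 CPM (median 29.6) in MS, against 36.1 to 49.1 CPM (median 42.3) in Control. Among supplemented mice the groups were apart, at 22.97 to 40.7 CPM (median 34.5) in MS_EC12, against 48.3 to 67.1 CPM (median 54.1) in Control_EC12. Without the supplement 1 MS library lay above the lowest Control libraries. The fold change was -0.58 ± 0.108 on the log2 scale (edgeR adjusted p = 0.02).

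Egr2, a zinc finger factor of the Egr family, was at 5.44 to 15.8 CPM (median 10.7) in MS, against 13.5 to 18.6 CPM (median 18.0) in Control. It was at 7.69 to 11.9 CPM (median 9.97) in MS_EC12, against 14.4 to 21.2 CPM (median 17.9) in Control_EC12. The spread in MS was wide, and its 2 highest libraries lay among the Control values. Its fold change was -0.77 ± 0.144 on the log2 scale (edgeR adjusted p = 0.02). These 4 genes passed in each of 24 fits that left out 1 library. Within MS, Egr2 was at 12.4 to 15.8 CPM in replicates 1 to 3 and at 5.44 to 8.91 CPM in replicates 4 to 6. Fos (34.0 to 44.4 against 21.8 to 25.3 CPM) and Klf10 (27.9 to 32.0 against 17.5 to 23.4 CPM) split likewise. Nr4a3 overlapped between these replicates (30.8 to 39.1 against 24.6 to 35.7 CPM). What sets the replicates apart was not tested.

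**Figure D1:**
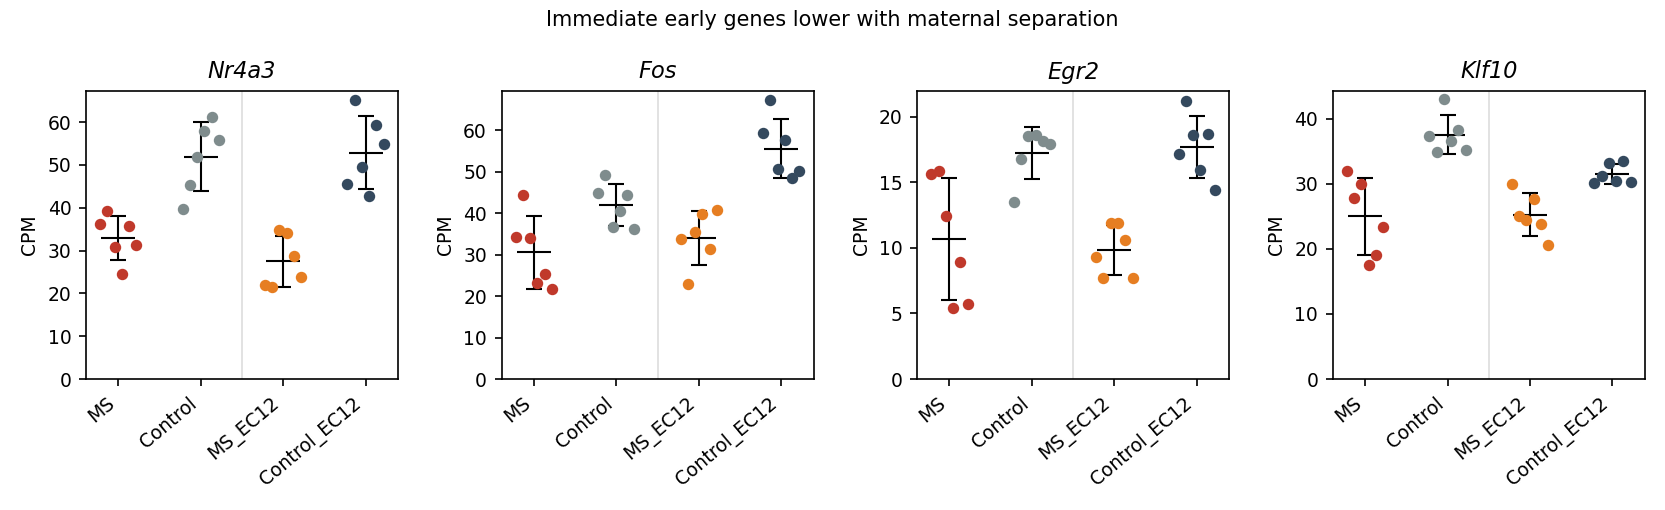
CPM of Nr4a3, Fos, Egr2 and Klf10 (1 panel each) in the 6 libraries of MS, Control, MS_EC12 and Control_EC12. Points are libraries, and bars are the group mean with the SD. For Nr4a3 and Klf10 every separated library lies below every normally reared library of the same supplement state.

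The list of activity-induced immediate early genes had 45 members tested. In the additive fit 4 were lower and 0 higher, beside 0.0816% of all genes lower, and 38 of 45 had a negative fold change. The list's median log2 fold change was -0.226, against -0.0155 for all genes, and it was -0.284 in mice without and -0.196 in mice with the supplement. The summed level of the list ran from 1920 to 2620 CPM in separated libraries, against 2400 to 2900 CPM in normally reared ones, so the ranges overlapped. Arc, whose product acts in AMPA receptor removal at synapses, had a fold change of -0.50 ± 0.21 and did not pass (edgeR adjusted p = 0.387). Its values spread widely, from 52.5 to 218 CPM in MS, against 129 to 220 CPM in Control.

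In the 17 libraries of GC slope below 0 (7 separated, 10 reared normally), 301 genes passed (1.64%), 79 higher (0.43%) and 222 lower (1.21%), and they included 25 of the 30 above. There 16 of the 45 immediate early genes were lower. With GC slope as a further term in all 24 libraries, 15 were lower, beside 116 of 18380 genes (0.631%), and 1 was higher, beside 44 (0.239%). Within the 17, however, the slope itself was lower in separated mice, at -0.194 ± 0.0198 in MS (SD, n = 5), against -0.132 ± 0.0276 in Control (n = 6), and at -0.179 ± 0.00393 in MS_EC12 (n = 2), against -0.151 ± 0.0353 in Control_EC12 (n = 4; exact permutation p = 0.00678, adjusted p = 0.0203). When that slope was added to the fit of the 17, 2 genes passed, both lower (0.0109%) and 0 of them among the 30. In that fit all 30 kept their sign, which their choice on libraries that include these 17 favours. There Nr4a3 stood at -0.79 (adjusted p = 0.211), Fos at -0.69 (adjusted p = 0.243), Egr2 at -0.69 (adjusted p = 0.393) and Klf10 at -0.41 (adjusted p = 0.378), and 1 immediate early gene was lower, with a list median of -0.325. The part of the GC slope in these counts was not tested beyond these fits.

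Ppp1r3c, which targets protein phosphatase 1 to glycogen and promotes its synthesis, ran from 25.8 to 33.8 CPM (median 30.7) in MS, against 37.8 to 41.5 CPM (median 38.7) in Control. In the supplemented groups it ran from 18.5 to 30.5 CPM (median 26.4) in MS_EC12, against 29.9 to 38.4 CPM (median 33.2) in Control_EC12. The groups were apart without the supplement and overlapped in 1 library with it (log2 fold change -0.38 ± 0.0661, edgeR adjusted p = 0.0194).

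Slc16a1, which encodes the lactate and ketone body transporter MCT1, spanned 22.3 to 31.1 CPM (median 26.4) in MS, against 30.4 to 35.98 CPM (median 32.7) in Control. It spanned 25.6 to 31.6 CPM (median 28.4) in MS_EC12, against 31.2 to 38.0 CPM (median 35.6) in Control_EC12. In each state 1 separated library lay above the lowest normally reared one. The log2 fold change was -0.30 ± 0.0788 without and -0.30 ± 0.0787 with the supplement, and -0.30 ± 0.0547 in the additive fit (edgeR adjusted p = 0.02). The difference between the states had an SE of 0.111 (edgeR interaction, adjusted p = 0.998), which does not show that the effects were equal. With per-library GC offsets the additive value was -0.11 and did not pass (adjusted p = 0.645).

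Thbs1, a matrix glycoprotein that limits vessel growth, fell by 0.63 on the log2 scale (SE 0.134, edgeR adjusted p = 0.0462). Lama4, a laminin chain of the vascular basement membrane, had -0.44 ± 0.0883 (adjusted p = 0.0345), and Cgnl1, a protein of tight and adherens junctions, -0.34 ± 0.0707 (adjusted p = 0.0418). Osr1, a zinc finger factor of mesenchyme, had -0.58 ± 0.109 (adjusted p = 0.02) at a low level, from 1.3 to 1.64 CPM in MS, against 1.5 to 2.98 CPM in Control. Thbs1 overlapped between MS (2.47 to 4.23 CPM) and Control (3.48 to 5.08 CPM) and was apart between MS_EC12 (2.1 to 3.58 CPM) and Control_EC12 (4.03 to 6.03 CPM).

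Pla2g4e, an acyltransferase that makes precursors of N-acylethanolamines, had -0.47 ± 0.0941 (adjusted p = 0.0345), and Acer2, a ceramidase of the Golgi, -0.49 ± 0.104 (adjusted p = 0.0462). Arid5a, an RNA-binding protein that stabilises Il6 transcripts, had -0.39 ± 0.0813 (adjusted p = 0.0426), and Zbtb2, a zinc finger protein, -0.30 ± 0.0624 (adjusted p = 0.0462). Pla2g4e, Lama4, Cgnl1, Arid5a, Acer2, Zbtb2 and Thbs1 passed in 12 or fewer of the 24 fits that left out 1 library, and Thbs1 did not pass in the 17 libraries of GC slope below 0 (-0.61 in place of -0.63, adjusted p = 0.0695).

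Among meningeal and perivascular fibroblast genes all 25 members tested had a negative fold change, with a median of -0.231, and 0 passed. Col3a1, a fibrillar collagen, stood at -0.31 ± 0.0907 (edgeR adjusted p = 0.228), Slc6a20a, an amino acid transporter, at -0.28, Slc13a4, a sulphate transporter, at -0.27, and Igf2, a growth factor of the meninges, at -0.23 (adjusted p from 0.254 to 0.291 for these 3). In the 17 libraries the median was -0.233 and 2 were lower, beside 1.21% of all genes. Igf2 was among them at -0.31 (edgeR adjusted p = 0.0275). The summed level ran from 912 to 1450 CPM in separated libraries, against 944 to 1740 CPM in normally reared ones. Fewer cells of a type and less RNA per cell cannot be told apart in bulk tissue, and the part of fibroblast content in the fall of Osr1, Lama4 and Thbs1 was not tested. The 22 endothelial genes had a median of 0.0379, which joins -0.119 without and 0.208 with the supplement, and it was -0.13 in the 17 libraries. None passed in the additive fit. Ly6c1, a surface protein of endothelium, passed with the supplement (0.71, adjusted p = 0.0212) and stood at 0.14 without it (interaction adjusted p = 0.735). The 15 pericyte and smooth muscle genes had a median of -0.0129 with 0 passing, and -0.083 with 1 lower in the 17 libraries.

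Among the genes that rose, Ppp1r10, a nuclear regulator of protein phosphatase 1 that acts in transcription termination, had the smallest p. It ran from 53.4 to 72.4 CPM (median 56.2) in MS, against 42.3 to 50.4 CPM (median 48.0) in Control. With the supplement it ran from 57.3 to 73.0 CPM (median 66.4) in MS_EC12, against 45.3 to 59.1 CPM (median 50.3) in Control_EC12. All 12 separated libraries lay above the median of their state's normally reared group (log2 fold change 0.34 ± 0.0568, edgeR adjusted p = 0.0194). In 21 of the 27 named genes that passed, all 12 lay on the side of that median given by the fold change. Choice by smallest p favours this (share of all genes not counted).

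Zdhhc14, an enzyme that attaches palmitate to proteins, rose by 0.44 ± 0.0761 on the log2 scale (adjusted p = 0.0194). It spanned 43.1 to 54.5 CPM in MS, against 32.6 to 44.0 CPM in Control, and 37.7 to 60.2 CPM in MS_EC12, against 29.6 to 40.2 CPM in Control_EC12. Its span overlaps that of a predicted gene model. Galnt18, of the family that begins O-glycosylation, rose by 0.31 ± 0.0558 (adjusted p = 0.02), and Car12, a membrane carbonic anhydrase, by 0.43 ± 0.0875 (adjusted p = 0.0408). The long noncoding RNA 4930445K14Rik, whose span overlaps Pcif1, rose by 0.53 ± 0.0908 (adjusted p = 0.0194). It was at 6.3 to 8.41 CPM in MS, against 3.08 to 5.11 CPM in Control, and at 6.51 to 8.21 CPM in MS_EC12, against 5.19 to 6.78 CPM in Control_EC12. Reads of 4930445K14Rik and Pcif1 could have been split between them, since the strand setting of the counting is not given in the sources used here.

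Plin4, a perilipin that coats lipid droplets and is induced by glucocorticoids, had the largest fold change among the named genes that passed, 1.26 ± 0.229 on the log2 scale (edgeR adjusted p = 0.02). It ran from 5.05 to 7.88 CPM (median 6.94) in MS_EC12, against 1.04 to 2.45 CPM (median 1.37) in Control_EC12. Without the supplement the groups overlapped, at 2.33 to 6.24 CPM (median 3.86) in MS, against 2.34 to 4.51 CPM (median 2.51) in Control. The fold changes of the states were 2.11 ± 0.227 with and 0.45 ± 0.217 without the supplement, and their difference did not pass (interaction adjusted p = 0.112, unadjusted p = 1.83e-05). The span of Plin4 overlaps Hdgfl2.

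Pglyrp1, which binds bacterial peptidoglycan, ran from 5.27 to 8.59 CPM (median 6.41) in MS_EC12, against 1.91 to 4.49 CPM (median 2.71) in Control_EC12. Without the supplement it ran from 3.48 to 4.87 CPM (median 3.94) in MS, against 2.0 to 3.65 CPM (median 3.06) in Control. The groups were apart with the supplement, and 5 of 6 MS libraries lay above every Control library without it (log2 fold change 0.83 ± 0.153, edgeR adjusted p = 0.02).

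Trpv4, a cation channel opened by warmth and swelling that the choroid plexus expresses strongly, ran from 1.53 to 5.67 CPM (median 2.49) in MS_EC12, against 0.994 to 1.38 CPM (median 1.1) in Control_EC12. It ran from 1.06 to 1.71 CPM (median 1.38) in MS, against 0.563 to 1.36 CPM (median 0.798) in Control (log2 fold change 1.03 ± 0.195, edgeR adjusted p = 0.02). Ttr, which encodes transthyretin and is the defining transcript of the choroid plexus, was at 642 CPM in MS_EC12 replicate 6 and at 54.8 CPM in MS replicate 3. The other separated libraries were at 0.0 to 2.84 CPM, against 0.107 to 4.64 CPM in the normally reared ones. Without those 2 libraries Ttr stood at 0.25 in place of 5.49 (adjusted p = 0.946 in place of 0.0757), and Trpv4 at 0.84 and passed (adjusted p = 0.0331). The summed level of the choroid plexus and ependymal list, with 15 members tested and 1 higher (Trpv4), ran from 147 to 940 CPM in separated libraries, against 138 to 238 CPM in normally reared ones. Its median fold change was 0.286, 0.082 without those 2 libraries and 0.0664 in the 17 libraries of GC slope below 0, where Ttr stood at 0.39 (adjusted p = 0.823). Without the 2 libraries of highest Ttr, 15 genes passed in place of 30. The GC slope was 0.297 in MS replicate 3 and 0.677 in MS_EC12 replicate 6. The parts of GC slope, choroid plexus content and fewer libraries in that drop cannot be told apart.

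The remaining genes that rose were Hspa12b, a member of the Hsp70 family found in endothelium (0.54 ± 0.097, adjusted p = 0.02), Eln, the gene of elastin (0.45 ± 0.0862, adjusted p = 0.0227), and Nat8f3, an N-acetyltransferase (0.41 ± 0.0802, adjusted p = 0.029). Kirrel2, an adhesion molecule of the immunoglobulin family, had 0.48 ± 0.0994 (adjusted p = 0.0418), and Srarp, a protein that binds steroid receptors in human cells, 0.90 ± 0.19 (adjusted p = 0.0462). Srarp was at 1.52 to 3.59 CPM in MS, against 0.698 to 1.67 CPM in Control. Car12, Kirrel2 and Srarp passed in 9 or fewer of the 24 fits that left out 1 library. Kirrel2 (0.33, adjusted p = 0.0845) and Srarp (0.47, adjusted p = 0.206) did not pass in the 17 libraries, and Hspa12b passed at 0.34 (adjusted p = 0.043).

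**Figure D2:**
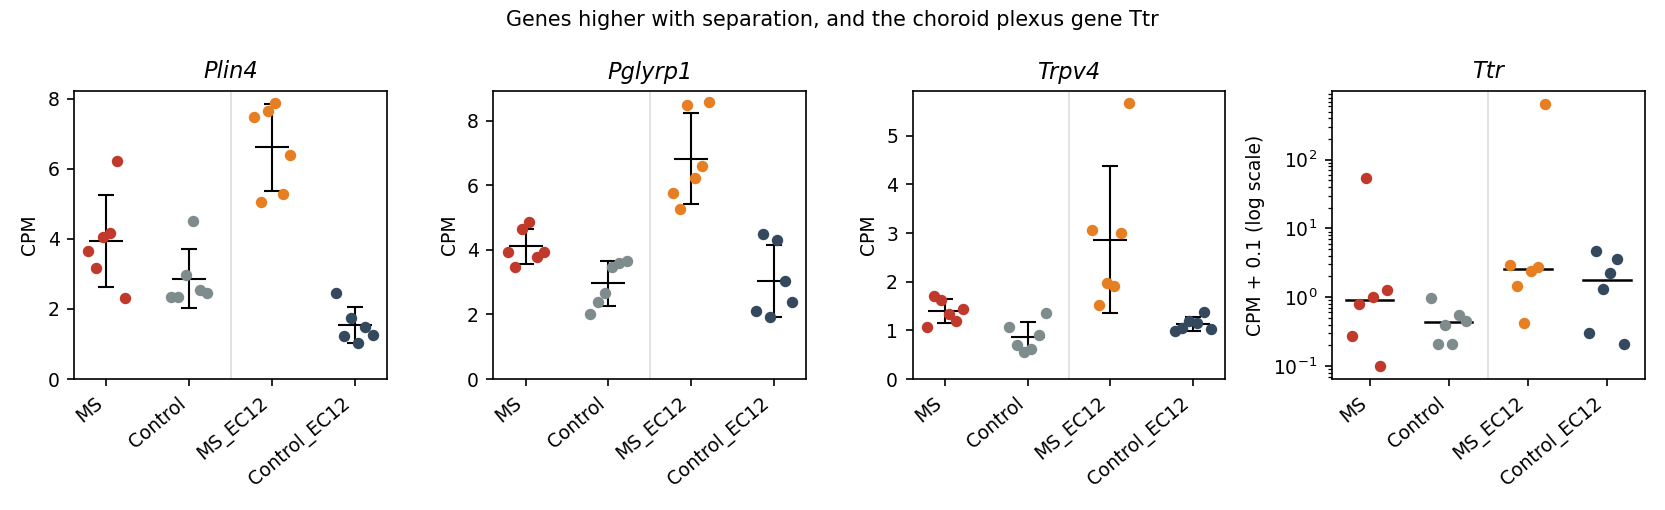
CPM of Plin4, Pglyrp1, Trpv4 and Ttr in the 6 libraries of MS, Control, MS_EC12 and Control_EC12. Points are libraries, bars are the mean with the SD, and for Ttr the axis is logarithmic (0.1 added to each value) and the bar is the median. Plin4, Pglyrp1 and Trpv4 are highest in MS_EC12, and the Ttr values of 642 and 54.8 CPM stand apart from all others.

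The additive effect averages over 2 comparisons that share no library, MS against Control and MS_EC12 against Control_EC12. All 30 genes had the same sign in both, which their choice on the joint effect favours, and 61.1% of all genes tested did. On their own, 1 of the 30 passed without the supplement, where 6 genes passed in all (0.0326%) and 4 of them were lower (0.0218%). With it 12 of the 30 passed, where 48 did in all (0.261%), 37 higher (0.201%) and 11 lower (0.0598%). By the test of the difference itself, 5 of the 30 had an unadjusted interaction p under 0.05, beside 882 of all 18380 genes. None of the 30 passed after adjustment. Thbs1, at -0.24 ± 0.157 without and -1.02 ± 0.158 with the supplement, had an unadjusted interaction p of 0.00177 (adjusted p = 0.56). Hspa12b stood at 0.29 ± 0.12 without and 0.78 ± 0.12 with it (adjusted p = 0.737), and 4930445K14Rik at 0.77 ± 0.113 without and 0.30 ± 0.111 with it (adjusted p = 0.735).

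**Figure D3:**
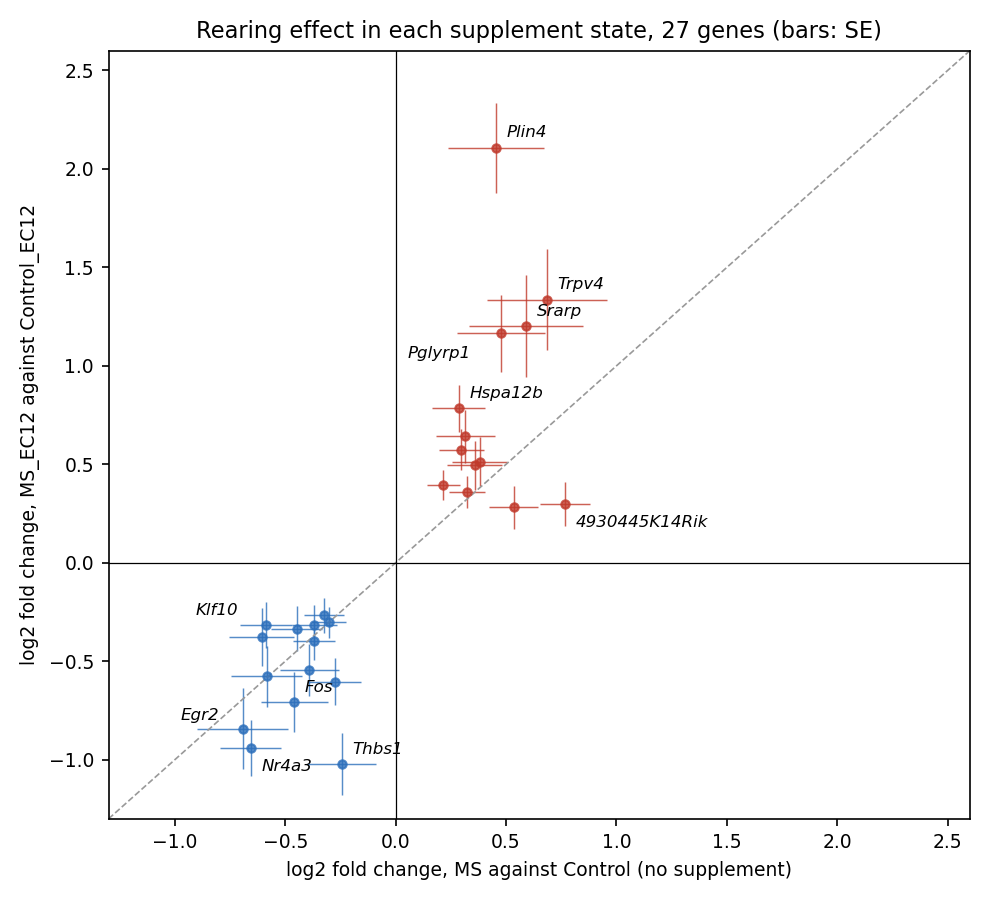
Log2 fold change of MS against Control (horizontal) and of MS_EC12 against Control_EC12 (vertical) for the 27 named genes that passed in the additive fit. Red points are genes that rose, blue points genes that fell, bars are SE and the dashed line marks equal effects. All points have the same sign on both axes, and Plin4 lies furthest from the line.

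Across all genes 2 passed the interaction of rearing and supplement (0.0109%), with 882 at an unadjusted p under 0.05. Neither passed in the additive fit. Banp, which binds promoter motifs holding a CpG in the nucleus, ran from 16.7 to 22.7 CPM (median 19.2) in MS, against 25.2 to 30.9 CPM (median 27.5) in Control. With the supplement it ran from 18.3 to 27.4 CPM (median 22.1) in MS_EC12, against 15.9 to 19.6 CPM (median 18.1) in Control_EC12. The groups were apart without the supplement, where Banp fell (-0.52 on the log2 scale, adjusted p = 0.0251), and overlapped with it (0.32, adjusted p = 0.152). The interaction was 0.84 ± 0.128 on the log2 scale (edgeR adjusted p = 0.0152), and the additive rearing effect -0.10 (adjusted p = 0.638).

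Bhlhe40, a repressor of the circadian clock that neuronal activity also induces, ran from 74.5 to 95.6 CPM (median 78.8) in MS, against 125 to 153 CPM (median 136) in Control. With the supplement it ran from 75.2 to 130 CPM (median 112) in MS_EC12, against 82.5 to 119 CPM (median 94.4) in Control_EC12. It fell without the supplement (-0.76, adjusted p = 0.0043), where the groups were apart, and did not pass with it (0.14, adjusted p = 0.459). The interaction was 0.89 ± 0.152 (edgeR adjusted p = 0.0379), and the additive effect -0.31 (adjusted p = 0.364). In the 17 libraries of GC slope below 0 the interactions were 0.63 for Banp (adjusted p = 0.177) and 0.61 for Bhlhe40 (adjusted p = 0.308). Only 2 of the 17 were MS_EC12. The additive effect there was -0.27 for Banp (adjusted p = 0.125) and -0.60 for Bhlhe40, which passed (adjusted p = 0.00208). Of 24 fits that left out 1 library, the interaction passed in 7 for Bhlhe40 and in 23 for Banp.

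**Figure D4:**
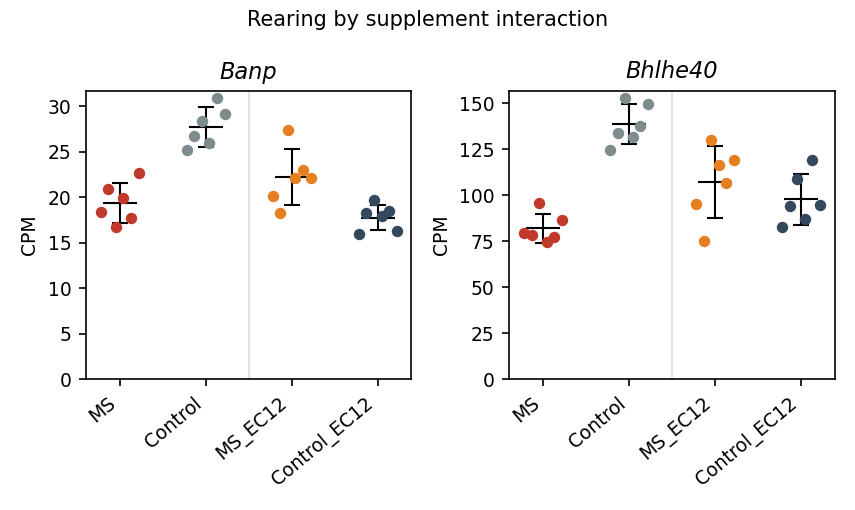
CPM of Banp and Bhlhe40 in the 6 libraries of MS, Control, MS_EC12 and Control_EC12, with the group mean and SD. In both genes all MS libraries lie below all Control libraries, while MS_EC12 and Control_EC12 overlap.

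Clock genes had no member that passed among 21 tested, and a median log2 fold change of -0.0273. The median was -0.129 without and 0.118 with the supplement. In the 17 libraries it was -0.0554 with 4 lower, beside 1.21% of all genes lower there. Per1, a repressor of the clock that is also an immediate early and a glucocorticoid-induced gene, had -0.38 ± 0.0848 (edgeR adjusted p = 0.0533). It ran from 71.0 to 96.2 CPM in MS, against 113 to 127 CPM in Control, and from 64.2 to 117 CPM in MS_EC12, against 92.2 to 132 CPM in Control_EC12. In the 17 libraries it passed at -0.58 (adjusted p = 3.16e-05). Nfil3, a repressor of the D-box, stood at -0.31 (adjusted p = 0.222), Npas2, an activator of the clock, at 0.24 (adjusted p = 0.23; 0.13 in the 17 libraries), and Arntl, the partner of Clock, at -0.20 (adjusted p = 0.254).

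Glucocorticoid-induced genes had 24 members tested, 1 of them higher (Plin4) and 0 lower, beside 0.163% of all genes in either direction. Their median was 0.0909, at -0.0276 without and 0.2 with the supplement. In the 17 libraries it was 0.0461 with 2 higher and 3 lower, beside 0.43% and 1.21% of all genes. Fkbp5, a chaperone that restrains the glucocorticoid receptor, had 0.27 ± 0.0625 (adjusted p = 0.0674). It ran from 38.6 to 51.4 CPM in MS_EC12, against 29.6 to 32.7 CPM in Control_EC12, with no overlap, and from 34.4 to 41.5 CPM in MS, against 33.8 to 38.7 CPM in Control, with overlap. It passed with the supplement alone (0.48, adjusted p = 0.00113), and the interaction did not pass (adjusted p = 0.238). Hif3a, a hypoxia-inducible factor, had 0.78 ± 0.189 (adjusted p = 0.1), and passed with the supplement alone (1.19, adjusted p = 0.0339) and in the 17 libraries (0.79, adjusted p = 0.049). Of the receptors and ligands of the stress axis 11 were tested and 0 passed, with Crh, the releasing hormone, at 0.23 (adjusted p = 0.387) and Nr3c1, the glucocorticoid receptor, at -0.17 (adjusted p = 0.458; -0.07 in the 17 libraries). Their median was 0.0923, and -0.067 in the 17 libraries.

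Of 12 candidate genes for stress, social behaviour and plasticity, Fos and Egr2 passed. The other 10 (Fkbp5, Nr3c1, Crhr1, Oxtr, Avpr1a, Adrb3, Bdnf, Arc, Mbp and Il1b) did not, with log2 fold changes from -0.575 to 0.274 and adjusted p from 0.0674 to 0.985. Il1b, a cytokine, was at 0.102 to 0.411 CPM in MS, against 0.222 to 0.664 CPM in Control, a level of a few counts per library. Oxt, the gene of oxytocin, had 2.89 ± 0.836 (adjusted p = 0.215). It was at 19.1 CPM in MS_EC12 replicate 6 and 6.94 CPM in MS replicate 1, and its median was 0.274 CPM in MS and 0.626 CPM in MS_EC12, against 0.194 CPM in Control and 0.291 CPM in Control_EC12. Avp, the gene of vasopressin, stood at 1.81 (adjusted p = 0.403).

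Of ribosomal protein genes 72 of 79 were positive (median 0.141), and nuclear genes of the respiratory chain and ATP synthase were positive in 72 of 75 (median 0.132). No member of either passed. Rpl29 had 0.23 ± 0.087 (adjusted p = 0.364) and Ndufb3 0.18 ± 0.0545 (adjusted p = 0.254). Rpl29 passed in the 17 libraries (0.17, adjusted p = 0.0133) and Ndufb3 did not (0.11, adjusted p = 0.125). There the ribosomal median was 0.0763 with 4 higher and the respiratory chain median 0.0707 with 3 higher, beside 0.43% of all genes higher. With GC slope as a further term these medians were 0.06 and 0.0556. Of the chaperones of the endoplasmic reticulum 17 of 20 were positive and 0 passed. Their median was 0.149, at 0.0319 without and 0.257 with the supplement, and Manf, a secreted factor of that compartment, stood at 0.33 ± 0.0811 (adjusted p = 0.108). Manf passed with the supplement alone (0.54, adjusted p = 0.0172) and stood at 0.17 in the 17 libraries (adjusted p = 0.11).

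Genes of neighbouring brain regions had no member passing in all 24 libraries. Of the striatal projection neuron genes 24 of 27 were positive (median 0.182), and their summed level ran from 2250 to 4600 CPM in separated libraries, against 2360 to 3970 CPM in normally reared ones. Hypothalamic and septal genes had 0.256 with 13 of 15 positive, and summed to 266 to 525 CPM in separated libraries, against 280 to 394 CPM in normally reared ones. Olfactory bulb genes had -0.209 with 16 of 18 negative, and summed to 331 to 842 CPM in separated libraries, against 356 to 984 CPM in normally reared ones. In the 17 libraries the medians were 0.151 for striatal genes, 0.244 for hypothalamic and septal genes and -0.254 for olfactory bulb genes. There 1 striatal gene was higher, beside 0.43% of all genes. The part of these regions in the results above was not tested.

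Markers of the cell classes of cortex had 0 members passing in all 24 libraries. Medians were 0.00915 for 21 excitatory neuron genes, -0.0198 for 20 interneuron genes, 0.0127 for 20 astrocyte genes, 0.0559 for 22 myelin and oligodendrocyte genes, -0.029 for 10 precursor genes and 0.0803 for 21 microglial genes. In the 17 libraries they were -0.0449 for excitatory neurons, -0.0463 for astrocytes, -0.0908 for myelin and oligodendrocytes, 0.0143 for precursors and 0.00222 for microglia. There 1 excitatory neuron gene and 1 myelin gene were lower, and 1 interneuron gene was higher, beside 1.21% and 0.43% of all genes. Olig2, the factor that specifies the oligodendrocyte lineage, was closest to the threshold. It ran from 22.6 to 32.2 CPM in MS, against 18.3 to 26.0 CPM in Control, and from 26.3 to 40.8 CPM in MS_EC12, against 19.9 to 30.3 CPM in Control_EC12 (0.39 ± 0.0838, adjusted p = 0.0533).

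Receptor, synaptic and immune lists likewise had 0 members passing in all 24 libraries. Medians were -0.141 for 16 GABA receptor genes, -0.0946 for 23 glutamate receptor genes, 0.0175 for 26 receptors of serotonin, dopamine and noradrenaline, 0.00763 for 32 postsynaptic genes, 0.0333 for 32 genes of synaptic vesicles and 0.0471 for 22 genes of neurotrophin and CREB signalling. The GABA receptor median changed sign between the states, at 0.0291 without and -0.304 with the supplement, and was 0.0584 in the 17 libraries of GC slope below 0. For antigen presentation and complement the median was 0.00119 over 22 genes, for interferon-stimulated genes -0.0725 over 36, for genes of bacterial sensing and innate cytokines -0.0776 over 27, heat shock proteins -0.0799 over 20 and cholesterol genes -0.0712 over 23. Neuropeptide signalling genes had 0.0194 over 30, blood cell genes 0.0945 over 10, and the Foxo, Banp and PDGF genes -0.0641 over 11. Medians that turned in the 17 libraries were -0.028 for postsynaptic, -0.0117 for synaptic vesicle, -0.0886 for antigen presentation and complement and 0.0337 for heat shock genes. Others that moved by over 1.5 times were -0.00644 for glutamate receptors, 0.00391 for the monoamine receptors, -0.0284 for bacterial sensing, 0.0984 for neuropeptides and -0.132 for the Foxo, Banp and PDGF genes. Foxo6, a forkhead factor of the brain, stood at -0.43 ± 0.109 (adjusted p = 0.117) and passed in the 17 libraries (-0.61, adjusted p = 0.00186).

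**Figure D5:**
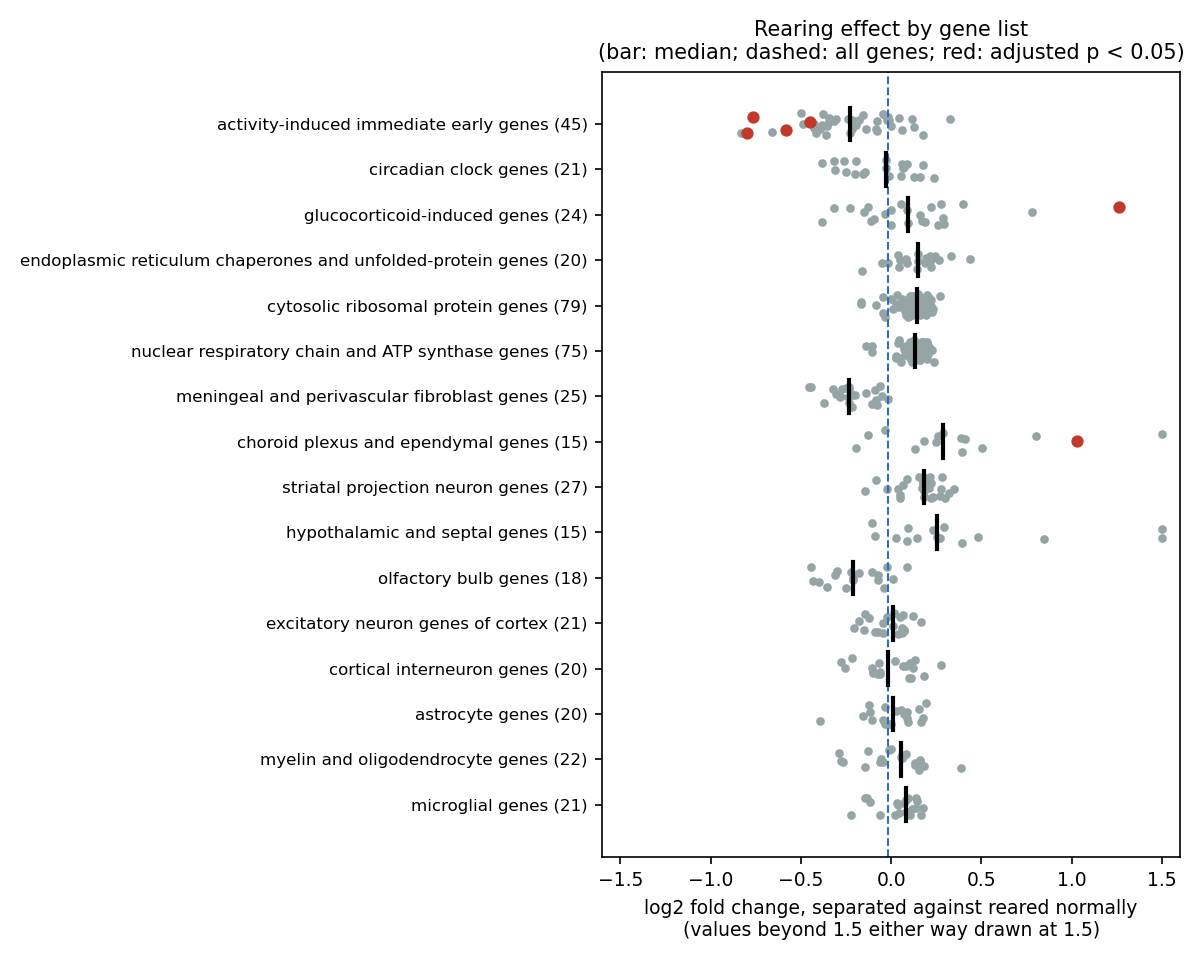
Log2 fold change of separated against normally reared mice for each member of 16 gene lists (rows, number tested in brackets). Points are genes, red where they passed, black bars are list medians and the dashed line is the median of all genes, -0.0155. Values beyond the axis are drawn at its edge. Immediate early and meningeal genes lie mostly to the left, and ribosomal and respiratory chain genes mostly to the right.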

How the data were processed

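Per the labels' protocols, ISOGEN II was used for RNA and a TruSeq stranded kit for the mRNA libraries. The build was mm10 and the tools included HISAT2 2.1.0 and StringTie 2.1.3b, per the submitters' processing notes. How reads were counted is not given in the sources used here. In the deposited table there are raw read counts per gene for 45777 genes, with TPM and FPKM values computed by the authors. Counts gave every main result, TPM an alternative, and FPKM was not used.

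From the counts, filterByExpr (minimum count 10, minimum total 15) kept 18380 genes. In edgeR 4.0.16 (R 4.3.3, TMM scaling) a quasi-likelihood F test was fitted with rearing and supplement as terms, and with 1 coefficient per group for each supplement state and the interaction. All tests were 2-sided, with Benjamini-Hochberg adjustment over all genes tested and a threshold of 0.05. Fold changes are separated over normally reared. Their SE was taken from the test, as the size of the log2 fold change divided by the square root of F. GC content was known for 82.39% of genes tested. No pair of libraries was a duplicate (smallest chi-square per gene 5.03).

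Named genes were the 15 of smallest p in each direction without predicted models, up to 4 members per list of 34, 12 candidates and up to 5 genes of the interaction. The comparison and lists were chosen with earlier results of these data known. The alternatives tried were other scaling, filters, DESeq2 1.42.0, deposited TPM with limma 3.58.1, a replicate block, GC terms and leaving out libraries.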

Additional observations from a re-analysis of the deposited data

Results flagged for a closer look

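In groups of 6 libraries, 14 of 140 groups tested held a library set apart from the others of its group. Chance gives about 1 in 20 for independent groups of normal values. These groups share libraries, and Ttr and Oxt, which hold several of the flags, were added by name. The count is therefore not read against that rate. Among genes that passed, Plin4 was at 4.51 CPM in Control replicate 4 (next 2.97), Trpv4 at 5.67 CPM in MS_EC12 replicate 6 (next 3.07), Eln at 7.69 CPM in Control_EC12 replicate 2 (next 6.88) and Lama4 at 7.16 CPM in MS_EC12 replicate 1 (next 5.88). Srarp was high in MS replicate 3 (3.59 CPM, next 2.15) and low in Control replicate 1 (0.698 CPM, next 1.31), where Egr2 was low too (13.5 CPM, next 16.8).

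Ttr was at 642 CPM in MS_EC12 replicate 6 (next 2.84) and 54.8 CPM in MS replicate 3 (next 1.16). Oxt stood apart in 1 library of each group, at 6.94 CPM in MS replicate 1 (next 1.61), 19.1 CPM in MS_EC12 replicate 6 (next 2.7), 1.31 CPM in Control_EC12 replicate 4 (next 0.325) and 0.952 CPM in Control replicate 1 (next 0.286). The GC slope of MS replicate 3 was 0.297, with the next MS library at -0.169.

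By the edgeR test of the difference between the supplement states, Banp (interaction 0.837 on the log2 scale) and Bhlhe40 (0.892) passed in all 24 libraries. Neither passed in the 17 libraries of GC slope below 0, and Bhlhe40 passed in 7 of 24 fits that left out 1 library, against 23 of 24 for Banp.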

How the results depend on the processing

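Of 30 genes changed (15 higher, 15 lower), counts under other settings were 25 with DESeq2's size factors (16 higher, 9 lower), 114 with DESeq2's Wald test (59 higher, 55 lower), 18 with no filter (11 higher, 7 lower), 46 at a mean CPM of at least 1 (19 higher, 27 lower) and 53 with 1 coefficient per group (27 higher, 26 lower). They were 24 with rearing alone (13 higher, 11 lower), 24 with deposited TPM and a pseudocount of 1 (7 higher, 17 lower) and 25 with 0.1 (8 higher, 17 lower). GC slope as a further term gave 160 (44 higher, 116 lower), per-library GC offsets 116 (45 higher, 71 lower) and the 17 libraries of GC slope below 0 gave 301 (79 higher, 222 lower). After the data were seen, 2 settings were added: without the 2 libraries of highest Ttr 15 genes passed (6 higher, 9 lower), and with the slope term in the 17 libraries 2 passed (0 higher, 2 lower), where Ttr reversed to -0.5152. The cause of these moves was not tested. All 30 genes had the same direction under each of these settings in which they were tested, which their choice on the same libraries favours. Slc16a1 stood at -0.11 with GC offsets, in place of -0.30, and with TPM and a pseudocount of 1, Plin4 stood at 0.68, Trpv4 at 0.49, Acer2 at -0.29 and Thbs1 at -0.41.

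Genes with an interaction numbered 2, against 19 with DESeq2's Wald test and 1 with no filter. The 17 libraries of GC slope below 0, with 2 from MS_EC12, also gave 2, neither of them Banp or Bhlhe40. Leaving out 1 library gave 15 (without Control replicate 1) to 96 (without Control_EC12 replicate 4) genes changed, 8 to 32 higher, 7 to 64 lower, and 0 (without MS replicate 1) to 4 (without Control replicate 2) with an interaction. Changed genes also moved by over 1.5 times without Control_EC12 replicate 5 (16), Control replicate 2 or MS_EC12 replicate 5 (17 each) and Control_EC12 replicate 1 or 6 (18 each). The rearing difference in GC slope ran from 0.0942 to 0.185 and did not pass in any of these fits. Genes of few counts are the least precise at this depth.

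With the replicate number as a block, 50 genes changed (24 higher, 26 lower) and 9 had an interaction. Whether the numbers pair the samples was not tested, and the labels do not say so. Of 36 same-numbered pairs 13 correlated over 0.1 (median 0.0822, highest 0.5747, against a median of -0.0144 for other numbers). An unadjusted p under 0.05 was reached by 3456 genes with the block and by 2153 in the main fit. The GC slope of replicate 3 was 0.297 in MS, 0.547 in MS_EC12 and 0.474 in Control_EC12, against -0.131 in Control. The block is given only here.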
